A study of Mus musculus with 6 samples.

Results

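The regions described here were the intronic peaks of genes that also had a peak in an exon. A peak in the authors' deposited table was taken when its transcript region was Intron and any of its gene names also occurred on at least 1 peak in coding sequence (CDS), a 3′ UTR or a 5′ UTR. This rule, which uses no measured value, gave 17552 of the 55449 peaks, or 17552 of the 23461 intronic peaks, in 3881 genes. The peaks were 1 to 195 nucleotides long, with a median of 33. Of them, 17252 (98.3%) lay inside the RefSeq span of their gene, on mouse build GRCm38.p6, which is mm10.

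The study used enhanced crosslinking and immunoprecipitation (eCLIP), in which ultraviolet light fixes proteins on the RNA at their contacts, an antibody recovers the protein and the attached RNA fragments are sequenced. The cells were MLTC-1, a mouse Leydig tumour line, all irradiated at 254 nm with 400 mJ per cm2 and with no other treatment named. The 6 libraries fell into 4 groups: 2 immunoprecipitations (IP) with an antibody against ZFP36L2, their 2 inputs, 1 IP with rabbit IgG as the negative control, and its 1 input. Each peak carried an adjusted p and the log2 fold change between ZFP36L2 and IgG, with no value of a single library. Depth per peak and spread between libraries are therefore unknown, and the IgG side rests on 1 IP library, so that the antibody and that library cannot be told apart. The table's name sets the direction of each fold change, and RNA levels in the inputs were not analysed here.

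ZFP36L2 is a zinc finger protein of the tristetraprolin family, which binds AU-rich elements, mostly in the 3′ UTRs of mRNAs, and recruits deadenylases that speed decay of the bound transcript. Introns are removed from the primary transcript in the nucleus, whereas coding sequence and UTRs remain in the mature mRNA, so a gene with peaks in both gives a reading of unspliced and of shared RNA side by side. Leydig cells make testosterone from cholesterol under control of luteinizing hormone and cyclic AMP.

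RefSeq promoter windows of the same build held the sequence of a few of these regions, those wholly between 250 bases before and 50 bases after a start site. They numbered 58, 27 of them in the window of their own gene. Of the 58, 1 was enriched (1.72%, against 2.22% of all peaks) and 5 were depleted (8.62%, against 5.44%) in the authors' deposited table by the thresholds given further on, and these 6 are shown because they are the called regions whose letters could be read. Capitals mark bases of the peak and small letters the bases beside it, each run being the 30 bases around the peak's middle, 5′ to 3′ on the peak's strand.
Mical3, enriched, chr6:121081807-121081866, minus strand: ACGGGGCAGGGGGCAGGGGGCGGGGTGGGG
Papolg, depleted, chr11:23894224-23894249, minus strand: atTCACGACGCTCTTCCAAGGCCCCAGAgc
Nup188, depleted, chr2:30286532-30286583, plus strand: CTCAGCCGCAGTGGCAGAGACGAGCCCCGG
Dcakd, depleted, chr11:103017374-103017390, minus strand: ggcggatTTCTGAGCCTGGTCTACagagtg
Tecr, depleted, chr8:83583383-83583405, minus strand: gccgGCTTGGGTGGAGCCAGGGGCGGGcat
Dhrs13, depleted, chr11:78032728-78032753, plus strand: gaGGCGGGTGAGCCCGGGACGCGGAGGGcg

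The enriched run belongs to Mical3, a monooxygenase that acts on actin filaments, and its log2 fold change was 3.89 (adjusted p = 1.9e-04). The depleted ones belong to Papolg, a nuclear poly(A) polymerase, at -4.36 (adjusted p = 2.4e-07), Nup188, a nuclear pore subunit, at -4.02 (adjusted p = 4.6e-06), and Dcakd at -3.69 (adjusted p = 7.9e-04). Tecr, a reductase of very long chain fatty acid synthesis, had -3.29 (adjusted p = 0.0025) and Dhrs13, a short chain dehydrogenase, had -2.90 (adjusted p = 0.035), all as the authors' deposited table gives them. The Mical3 and Dcakd regions lay in the windows of their own genes, while those of Papolg, Nup188 and Dhrs13 lay in windows of genes on the opposite strand (Gm12061, Dolk and Dhrs13os) and that of Tecr in the window of Gm51541 on the same strand.

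Motifs were counted on the peak's strand in windows of 50 bases centred on the peak, for the 55 regions whose window fitted. The pentamer ATTTA, which also lies inside TATTTAT, was in 1 window (1.82%), TATTTAT in 0 and TTTTT in 1 (1.82%). Among the 369 peaks of all kinds in such windows the shares were 1.08%, 0% and 1.90%, and among all 197106 promoter stretches of that length 3.81%, 0.43% and 5.28%. Mean GC content was 64.6% around the intronic regions, 64% around peaks of all kinds and 53.8% over all promoter stretches. These windows cover a small, start-proximal share of the regions, and the letters of the others were not analysed here.

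Most intronic peaks had a log2 fold change below 0, as did most peaks of the table. Their log2 fold changes, as the authors' deposited table gives them, had a median of -1.20 (quartiles -2.0 and -0.19) and a range from -6.79 to 7.05, and 13790 peaks (78.6%) were below 0. Over all 55449 peaks the median was -1.06 with 76.2% below 0, so that relative to the table's own median the intronic peaks lay at -0.14. How the deposited values were scaled is unknown, and the sign of a value that was not called shows no more than this. Peaks with an adjusted p under 0.05 counted as enriched where the log2 fold change was at least 1, and as depleted where it was at most -1. By this rule 400 of the 17552 were enriched (2.28%, against 2.22% of all peaks in the table) and 1177 were depleted (6.71%, against 5.44% of all peaks). The enriched share was near that of the whole table, and the depleted share was above it.

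Depleted peaks had to be larger in size than enriched ones to be called. All 92 intronic peaks with a log2 fold change of 3 to 4 were called, all 84 at 4 to 5 and all 46 above that, as were 160 of 318 (50.3%) between 2 and 3 and 18 of 929 (1.94%) between 1 and 2. On the depleted side all 20 below -5 were called, all 134 between -5 and -4, 757 of 819 (92.4%) between -4 and -3, and 262 of 3374 (7.77%) between -3 and -2. Enriched peaks had a median log2 fold change of 3.22 and depleted ones of -3.30 in the authors' deposited table. A log2 fold change of less than 2 in size was therefore seldom called in either direction, at a depth that is unknown.

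Within the same genes, exonic peaks sat higher. In the authors' deposited table the 16863 exonic peaks had a median of -0.75 on the log2 scale (quartiles -1.65 and 0.15), and 393 (2.33%) were enriched and 691 (4.10%) depleted. Coding peaks had the highest median, -0.65, followed by 5′ UTR peaks at -0.92 and 3′ UTR peaks at -1.02, where 3.88%, 4.98% and 4.58% were depleted. The 5909 intronic peaks of genes without any exonic peak lay lower still, with a median of -1.62, 108 enriched (1.83%) and 474 depleted (8.02%). Differences between these sets are descriptions, since peaks of 1 gene share their source and no test of the sets was made.

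**Figure D1:**
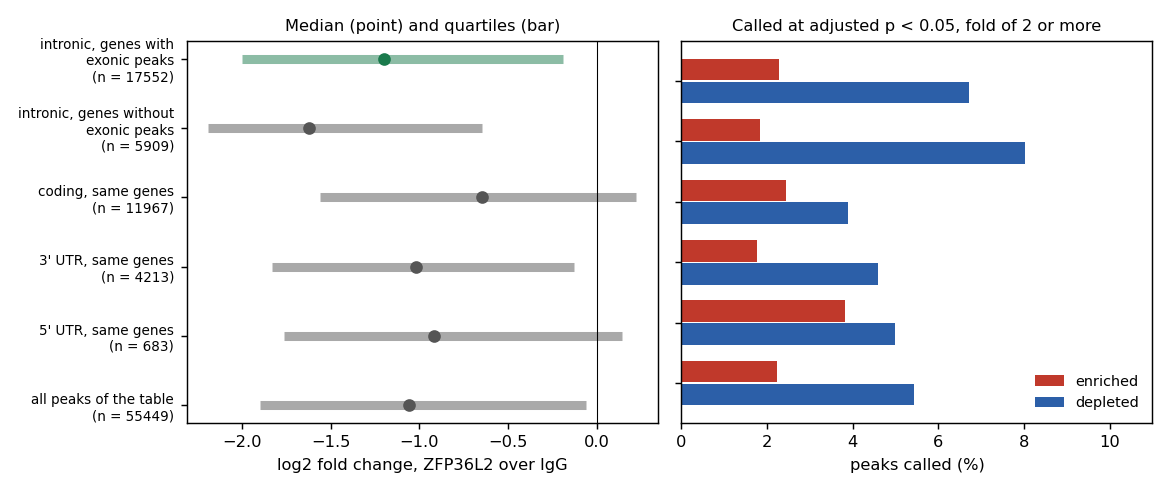
Left, median (point) and quartiles (bar) of the log2 fold change (ZFP36L2 over IgG) for 6 sets of peaks, with the number of peaks in each; right, percent of each set called enriched (red) or depleted (blue). Intronic peaks of genes with exonic peaks have a median of -1.20, between -1.62 for other intronic peaks and -0.65 for coding peaks of the same genes.

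A gene-by-gene comparison gave the same order. The median of a gene's intronic peaks was lower than the median of its exonic peaks in 2430 of 3881 genes (62.6%), higher in 1445 and equal in 6, and the median difference over genes was -0.39 on the log2 scale (quartiles -1.21 and 0.44). In the 1217 genes with at least 3 peaks of each kind it was -0.42, with the intronic median lower in 64.3%. The gap was -0.51 against coding peaks alone (3244 genes), -0.33 against 5′ UTR peaks (474 genes) and -0.21 against 3′ UTR peaks (1840 genes). The quartiles lie on both sides of 0, so many genes went the other way.

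Enriched intronic peaks came from few genes and depleted ones from many. An enriched intronic peak was found in 140 genes (3.61%), and in 80 of them it was 1 peak only. A depleted one was found in 726 genes (18.7%), 410 with 1 peak only, and 31 genes had both. The 3 genes with most enriched peaks held 119 of the 400 (29.8%) and the top 10 held 186 (46.5%), whereas the 3 genes with most depleted peaks held 19 of 1177 (1.61%) and the top 10 held 55 (4.67%). Without the 3 leading genes, which are Gse1, Galnt2l and Pgbd5, 281 enriched peaks were left and the enriched share was 1.63%, which is below the 2.22% of all peaks, a share that includes those genes.

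These 3 genes lie on chromosome 8, where 9.96% of the intronic peaks were enriched, against 0.452% to 3.23% on the other chromosomes. Gse1, which encodes a coiled-coil protein found in histone deacetylase complexes, had 164 intronic peaks, 69 of them enriched, whose median in the authors' deposited table was 4.34 on the log2 scale, against 1.05 for the 95 others. Galnt2l, a name absent from the RefSeq table, shared 68 of those enriched peaks and added none of its own, while its 4 depleted peaks lay elsewhere. Pgbd5, whose ancestor is a piggyBac transposase, had 50 of 73 intronic peaks enriched (median 4.04) while its 4 exonic peaks ran from -1.22 to -0.34 and none was called.

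Other genes carried their enriched intronic peaks in a shorter stretch of a long intron-rich gene. Smarca2, the BRM ATPase of the SWI/SNF chromatin remodelling complex, had 11 enriched peaks among 27, all between 112 and 132 kb from the gene's start, with log2 fold changes from 1.96 to 3.21 in the authors' deposited table. The best of them, at 26729309 to 26729371 on chromosome 19, had 3.21 (adjusted p = 3.6e-22), the peaks not called in this gene ran from -2.0 to 1.76, and 1 peak near its end was depleted at -2.10 (adjusted p = 0.047). The 2 coding peaks of Smarca2 were at 0.85 and 1.13 and were not called.

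Pakap, a gene that joins the paralemmin Palm2 with the protein kinase A anchoring protein Akap2, had 13 of 32 intronic peaks enriched within 33.1 kb, at 2.51 to 5.88 in the authors' deposited table. The largest, at 57600877 to 57601017 on chromosome 4, had an adjusted p of 3.2e-19. No intronic peak of Pakap was depleted, and 2 of its 11 exonic peaks were enriched too, at 3.27 and 2.68, with at least 240424 nucleotides between them and the intronic cluster.

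Zmiz1, a transcriptional coactivator related to the PIAS proteins, had 10 enriched peaks among 66, between 11.4 and 96.8 kb from its start. Of these 10, 8 lay in a narrow band of log2 fold change from 3.96 to 4.69, and the other two were at 2.36 and 3.07 in the authors' deposited table. Its 2 depleted peaks, at -2.60 and -2.75, touched each other 166 kb from the start, and all 8 exonic peaks of Zmiz1, at -2.30 to -0.15, were not called. Both directions were therefore measured inside introns of 1 gene.

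Chchd3, a subunit of the complex that shapes mitochondrial cristae, had 8 of 23 intronic peaks enriched at 2.29 to 3.49. Gas6, the ligand of the TAM receptor kinases, had 7 of 12 at 2.16 to 3.9, and its 5 peaks not called were all above 0, at 0.84 to 1.27. All 7 enriched peaks of Gas6 also lay inside the RefSeq span of Tmem255b on the opposite strand. Gramd1b, which moves cholesterol from the plasma membrane to the endoplasmic reticulum, had 7 of 49 enriched at 2.33 to 3.71 and 2 depleted at -2.53 and -2.62 in the authors' deposited table. In these 3 genes no exonic peak was called, with exonic values from -1.49 to 1.22.

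**Figure D2:**
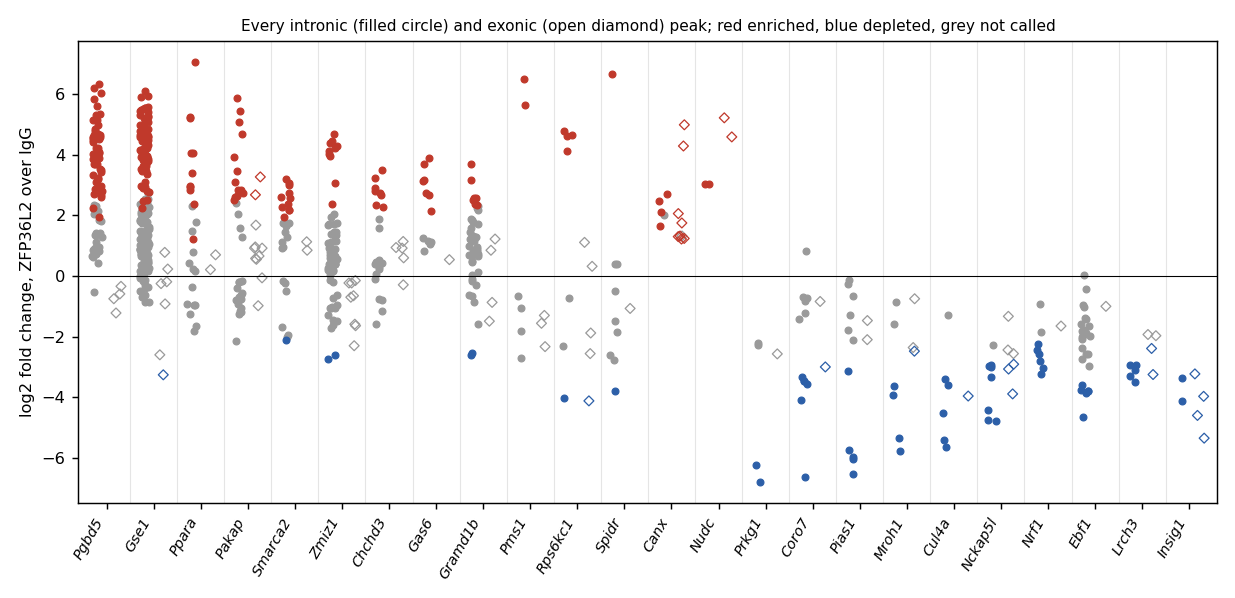
Log2 fold change of ZFP36L2 over IgG (vertical axis) of every intronic peak (filled circles) and exonic peak (open diamonds) of 24 genes, coloured red where enriched, blue where depleted and grey where not called. The enriched intronic peaks of Pgbd5, Gse1 and Smarca2 stand above exonic peaks that were not enriched, while in Canx and Nudc both kinds were enriched and in Insig1 all were depleted.

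Several of the largest values came from 1 or a few peaks of a gene. The intronic maximum of 7.05 (adjusted p = 3.1e-47) was in Ppara, a nuclear receptor of fatty acid oxidation, whose 11 enriched peaks formed 6 runs of touching peaks. Spidr, a scaffold of homologous recombination, had 1 enriched peak at 6.65 (adjusted p = 7.8e-33) among 9 intronic peaks with a median of -1.48, and 1 depleted peak at -3.79 (adjusted p = 8.1e-07) in another intronic stretch. Pms1, a mismatch repair protein, had enriched peaks at 5.64 and 6.50, at 53264857 to 53264923 and 53265181 to 53265215 on chromosome 1, and its 4 other intronic peaks, at -2.69 to -0.67, and 3 coding peaks, at -2.33 to -1.30, were not called in the authors' deposited table. In Spidr and Pms1 the high peaks stood alone, with no peak of intermediate value beside them.

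App, the amyloid precursor, had 1 enriched peak at 4.13 (adjusted p = 3.0e-32) among 10, and 9 others from -1.92 to 2.12. Rora, a nuclear receptor of the circadian clock, had 1 enriched peak at 5.07 (adjusted p = 2.2e-20) and 4 depleted ones at -4.11 to -2.75 among 87 intronic peaks in the authors' deposited table. Tbx1, a T-box transcription factor, had a single intronic peak, at 5.68 (adjusted p = 3.2e-14), beside a coding peak at -0.80 that was not called. Bysl, which assembles the small ribosomal subunit, had both of its intronic peaks enriched, 5 and 16 nucleotides long and touching, at 6.25 and 4.03. Its coding peak, 2078 nucleotides away, was enriched as well, at 3.2 (adjusted p = 6.6e-06).

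Lsamp, a neural cell adhesion protein with 116 intronic peaks, had 3 enriched at 2.67 to 5.58 and 4 depleted at -4.75 to -2.79, spread over a gene with a single exonic peak, in the 5′ UTR. The enriched peaks of Lsamp at 5.58 and 4.22 lay inside the span of Gm52229 on the same strand, so that the transcript they come from cannot be told apart by position. The kinase gene Map4k4 had 2 enriched intronic peaks at 3.65 and 4.05 and 3 enriched exonic peaks, up to 5.2, in the authors' deposited table. Ahdc1, which encodes a DNA-binding protein with AT-hooks, had 3 enriched intronic peaks at 4.68 to 5.67 and also 3 enriched exonic peaks, up to 4.74.

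**Figure D3:**
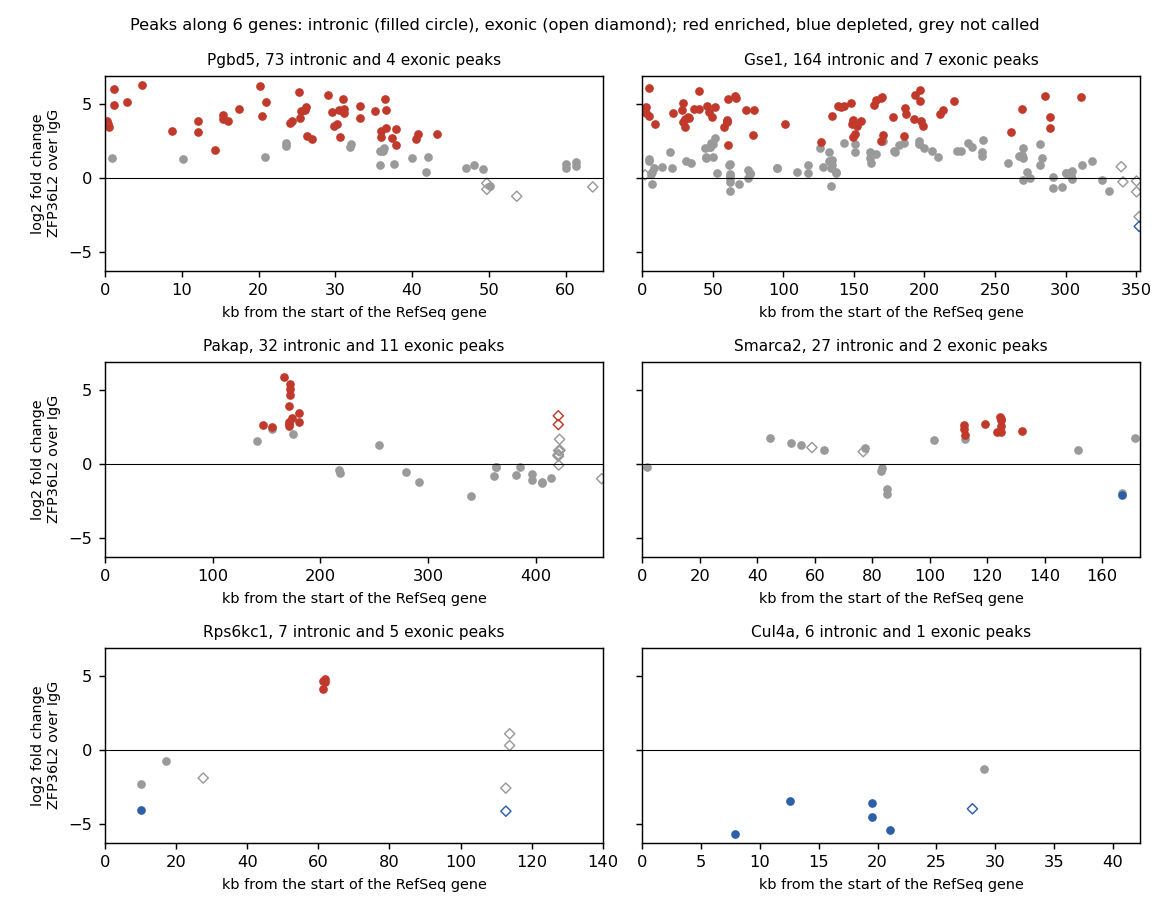
Log2 fold change of ZFP36L2 over IgG (vertical axis) against the distance in kb from the start of the RefSeq gene for intronic peaks (filled circles) and exonic peaks (open diamonds) of Pgbd5, Gse1, Pakap, Smarca2, Rps6kc1 and Cul4a, red where enriched, blue where depleted and grey where not called. Enriched peaks fill the first 43.2 kb of Pgbd5, but lie within 33.1 kb in Pakap and within 20.1 kb in Smarca2, and all but 1 of the 6 intronic peaks of Cul4a are depleted.

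Depleted intronic peaks reached similar sizes. The most negative were a touching pair in Prkg1, the cGMP-dependent protein kinase I, at -6.79 (adjusted p = 2.6e-23) and -6.22 (adjusted p = 4.0e-19) on chromosome 19, 518935 nucleotides from its exonic peak. Both lay inside the span of Cstf2t, a cleavage stimulation factor gene on the opposite strand. Coro7, a Golgi coronin, had 6 of 12 intronic peaks depleted at -6.62 to -3.32, and 4 of them were 1 run of touching peaks inside the span of Vasn on the opposite strand. Without those 4, the depleted peaks of Coro7 were at -3.48 and -3.57 in the authors' deposited table, so its extreme value came from the stretch shared with Vasn. Whether reads of the other gene entered these values was not tested.

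Pias1, a SUMO ligase, had 5 depleted peaks among 11, all in the first 10.25 kb of the gene, at -6.53, -6.03, -5.97, -5.75 and -3.14, and its 6 other intronic peaks ran from -2.11 to -0.12. Mroh1 had 4 of 6 depleted, at -5.78, -5.34, -3.94 and -3.62. Cul4a, the scaffold of a ubiquitin ligase, had 5 of 6 depleted, at -5.65, -5.41, -4.52, -3.58 and -3.41 over 13.2 kb, and its only exonic peak was depleted too in the authors' deposited table, at -3.96 (adjusted p = 2.6e-05). In Mroh1 1 of 3 exonic peaks was depleted, and in Pias1 0 of 2.

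Nckap5l had the most depleted intronic peaks, 7 of 8 at -4.77 to -2.95, with 3 of its 6 exonic peaks depleted. Nrf1, the nuclear respiratory factor that drives mitochondrial genes, had 6 of 8 at -3.23 to -2.25, and Ebf1, a B cell and adipocyte transcription factor, 6 of 28 at -4.65 to -3.59. All 5 intronic peaks of Lrch3 were depleted, at -3.51 to -2.93, as were 2 of its 4 exonic peaks in the authors' deposited table. Nrf1 and Ebf1 each had 1 exonic peak, at -1.65 and -1.0, which was not called. These counts take touching peaks singly. The depleted peaks lay in 4 runs of touching peaks in Nckap5l, 5 in Nrf1, 4 in Ebf1 and 3 in Lrch3, so the order by runs differs.

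**Figure D4:**
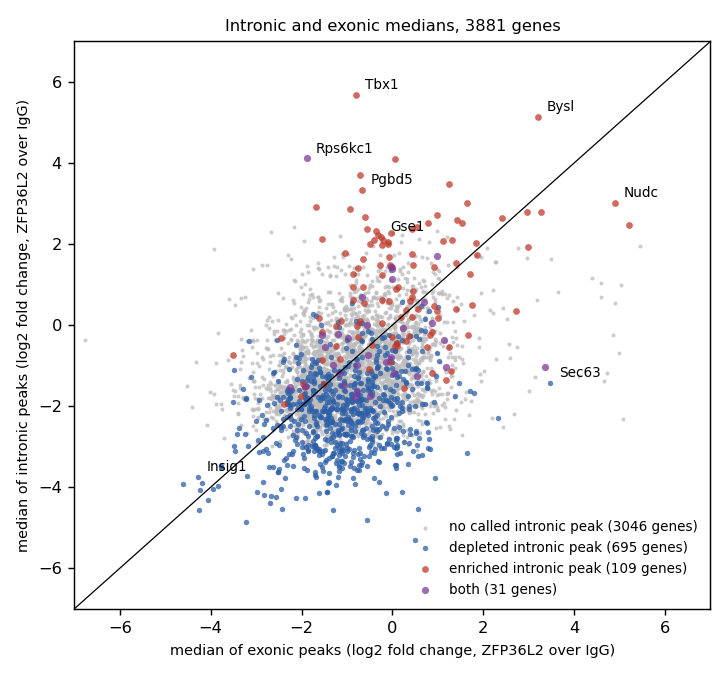
Median log2 fold change of ZFP36L2 over IgG of the intronic peaks (vertical axis) against that of the exonic peaks (horizontal axis) for the 3881 genes, coloured by whether the gene has an enriched intronic peak (red), a depleted one (blue), both (purple) or none (grey), with the line of equality. More genes lie below the line (2430) than above it (1445).

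Agreement of calls between introns and exons was partial. Of the 140 genes with an enriched intronic peak, 33 (23.6%) had an enriched exonic peak, against 5.93% of all 3881 genes, and these 33 were 14.3% of the 230 genes with an enriched exonic peak. Of the 726 genes with a depleted intronic peak, 123 (16.9%) had a depleted exonic peak, against 12.5% of all genes, which is 25.4% of the 485 genes with one. In 93 of the 140 and 568 of the 726 no exonic peak was called at all. These shares were not adjusted for the number of peaks per gene.

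Genes called in both places, chosen after their values were seen, included several with short peaks. Anp32a and Anp32e, acidic nuclear phosphoproteins that bind histones and phosphatases, had 2 enriched intronic peaks each, at 2.15 and 2.19 and at 2.38 and 2.78, beside 5 of 5 and 5 of 6 enriched exonic peaks. Nudc, a dynein cofactor, had 2 at 3.02 and 3.03 beside coding peaks at 4.59 and 5.22, and Metap2, which removes initiator methionines, had 2 at 2.75 and 2.84 beside 2.92 and 3.0 in the authors' deposited table. Dek, a chromatin protein, had 2 at 1.60 and 1.84 beside 1.86 and 1.86. The 2 enriched intronic peaks belonged to 1 run of touching peaks in each of Anp32a, Nudc, Metap2 and Dek, and to 2 runs in Anp32e. In Canx, the lectin chaperone calnexin, 4 of 5 intronic and 8 of 9 exonic peaks were enriched. The enriched intronic values lay inside the range of the exonic ones in Anp32a, above it in Anp32e, and below it in Nudc, Metap2 and Dek.

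Some genes were called in opposite directions. An enriched intronic and a depleted exonic peak occurred together in 16 genes. They were 11.4% of the genes with an enriched intronic peak, and 12.5% of all 3881 genes had a depleted exonic peak. A depleted intronic and an enriched exonic peak occurred together in 39 genes. These were 5.37% of the genes with a depleted intronic peak, and 5.93% of all genes had an enriched exonic peak. Both shares were near those of all genes. Rps6kc1, a kinase-like protein of endosomes, had 4 enriched intronic peaks at 4.12, 4.61, 4.66 and 4.78, all within 0.666 kb, while another intronic peak was depleted at -4.03 (adjusted p = 3.7e-07) and a coding peak at -4.12 (adjusted p = 3.0e-05). Fasn, the fatty acid synthase, had an enriched intronic peak at 4.83 (adjusted p = 3.0e-14) and a depleted coding peak at -3.15 (adjusted p = 1.4e-05) as the authors' deposited table gives them. Elmsan1, a subunit of histone deacetylase complexes, had 3 enriched intronic peaks at 4.86 to 5.44 inside the span of Gm31513 on the opposite strand, and a coding peak depleted at -2.95. Itpk1, an inositol phosphate kinase, had 3 enriched at 2.96 to 5.15 and a coding peak depleted at -3.22.

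The reverse pattern was led by Sec63, of the endoplasmic reticulum translocation machinery, with an intronic peak at -4.65 (adjusted p = 9.5e-10) and a 3′ UTR peak at 6.72 (adjusted p = 2.6e-23). Hipk2, a nuclear kinase, had 3 of 23 intronic peaks depleted at -3.53 to -3.11 and 7 of 16 exonic peaks enriched, up to 6.44. Notch2, a signalling receptor, had 1 of 10 intronic peaks depleted at -3.94 and 1 of 11 exonic peaks enriched at 4.47 in the authors' deposited table. Prr14l had -3.10 against 5.81, and Adgrl1, an adhesion receptor of the latrophilin family, had a touching pair at -3.55 and -3.26 that began 36 nucleotides from an exonic peak, against a largest exonic value of 5.35. A single value per gene does not show these calls.

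Distance to the exonic peak was mostly long. The median was 18744.5 nucleotides to the nearest exonic peak of the same gene, 26309.5 for enriched and 19232 for depleted peaks. Only 148 intronic peaks (0.843%) touched one. In these pairs the intronic peak had a median log2 fold change of -1.56 and its exonic neighbour -1.15, the median difference within pairs was -0.14, and Pearson's r across the 148 pairs, which share their libraries, was 0.73. Of the 12 depleted among them 7 had a depleted neighbour, of the 2 enriched 1 had an enriched neighbour, and 0 pairs had opposite calls.

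The touching pairs show this at the level of single genes. Pik3cb, a phosphoinositide kinase, had -4.07 in the intron and -4.24 in the adjoining coding peak, Bmi1, a Polycomb protein, -3.48 and -3.78, and Mvd, of the mevalonate pathway, -3.70 and -3.49 in the authors' deposited table. The touching enriched pair was in Canx, with 1.64 in an intronic peak of 3 nucleotides and 1.24 in the coding peak beside it. Sar1a, a small GTPase of vesicle budding, held the other touching enriched peak, with 2.67 (adjusted p = 0.0093) in the intron and no exonic peak called. The depleted touching peaks without a depleted neighbour are not named here. Baz2a had an enriched intronic peak at 2.66 some 16 nucleotides from an exonic peak that was not called.

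With distance the enriched share went from 1.35% of the 1111 peaks over 100 and up to 1000 nucleotides away to 1.67% up to 10000, 2.43% up to 100000 and 3.35% of the 2507 beyond that. Without Gse1, Galnt2l and Pgbd5 these shares were 1.18%, 1.56%, 1.53% and 2.19%, so most of the increase up to 100000 nucleotides rested on those genes. The 95 peaks at 1 to 100 nucleotides had 5 enriched (5.26%), in Anp32e, Baz2a, Psmc1 and a pair in Snd1, and 10 depleted (10.5%). The depleted share was 7.92% between 100 and 1000 nucleotides and 6.52% to 6.64% in the 3 longer classes. Farthest from an exonic peak among the enriched were peaks of Lsamp, Dlgap1, a postsynaptic scaffold, and Rora, the last 610051 nucleotides away. Among the depleted they were peaks named Galnt2l, Fgfr2, a growth factor receptor gene whose name stood there beside Ctbp2, and Pde4d. Intronic peaks with the name Galnt2l lay from 119913050 to 124342719 of chromosome 8 and included some also named Usp10 or Gse1, while its 6 exonic peaks were all also named Galnt2, so its longest distances, up to 3646897 nucleotides, follow from the name and may not lie within 1 gene.

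**Figure D5:**
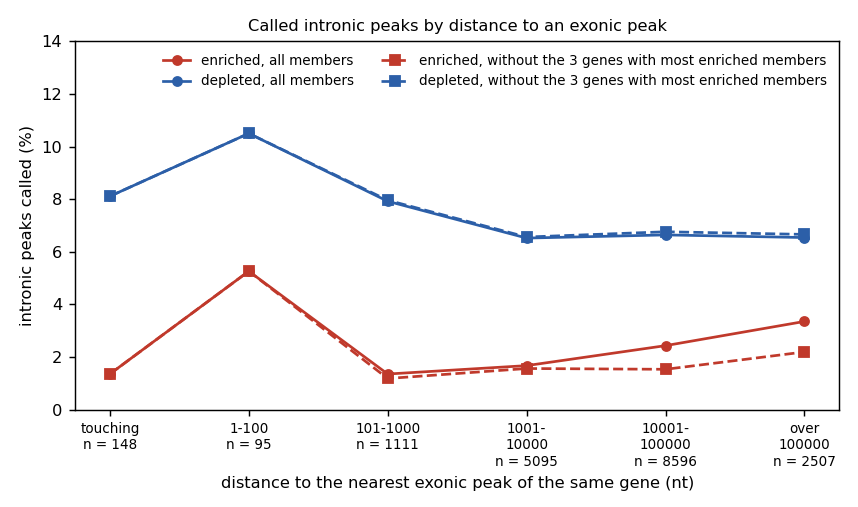
Percent of intronic peaks called enriched (red) or depleted (blue) by distance in nucleotides to the nearest exonic peak of the same gene, for all intronic peaks of the set (solid lines) and without Gse1, Galnt2l and Pgbd5 (dashed lines). The rise of the enriched share beyond 10000 nucleotides to 2.43% and 3.35% falls to 1.53% and 2.19% without those 3 genes, and the class of 1 to 100 nucleotides holds 95 peaks.

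Calls shared with exonic peaks of the gene were counted by distance. Among enriched intronic peaks within 1 kb of an exonic peak, 9 of 22 (40.9%) were in genes with an enriched exonic peak, against 65 of 378 (17.2%) farther away. For depleted peaks the shares were 32 of 110 (29.1%) and 184 of 1067 (17.2%). Gse1, Galnt2l and Pgbd5 held 119 of the 400 enriched intronic peaks and had 0 enriched exonic peaks. Nearly all of these 119 lay more than 1 kb from an exonic peak, so they lower the far share of 17.2%. That share was not recomputed without them, and the difference between near and far was not tested.

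Intronic peaks of 1 gene went together over short distances. Touching peaks made up 60.8% of the set, in runs of up to 4, and the 5320 runs of 2 or more had a median range of 0.23 on the log2 scale. Enriched peaks occurred in 336 runs, depleted ones in 904, and 0 runs had both. Beyond the run, the nearest intronic peak of the same gene was enriched for 192 of 371 enriched peaks (51.8%), against 229 of 14848 other peaks (1.54%), and without the 3 leading genes for 122 of 252 (48.4%) against 1.23%. For depleted peaks the share was 127 of 976 (13.0%) against 5.28%. The median gap to that neighbour was 789 nucleotides for enriched peaks (1252 without the 3 leading genes) and 7272 for depleted ones. The enriched and depleted shares therefore stand at unlike distances. The gap was not taken for the other peaks, so their shares may stand at unlike distances too. Called peaks that touch were each counted here and are not separate observations. In genes with at least 3 intronic peaks, the SD within a gene had a median of 0.82 and the SD over all their peaks was 1.52. Of the variance 49.9% lay between genes. That share counts touching peaks singly and was not corrected for the number of peaks per gene, so it may be too high.

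In genes with 2 or more enriched intronic peaks, these lay within 1 kb in 30 genes, over 1 to 10 kb in 9 and over more than 10 kb in 21. For depleted peaks these numbers were 188, 23 and 105 genes. Touching peaks were counted singly, so the class within 1 kb includes genes with 1 called run only, such as Anp32a, Bysl and Prkg1. In the whole set 60 runs of 2 or more were all enriched and 266 all depleted. Beside the genes already named, broad enriched stretches were found in Ppfibp1, a liprin (6 of 10 intronic peaks at 2.13 to 4.04), Nrp1, the semaphorin receptor neuropilin 1 (5 of 12 at 2.37 to 3.43, with 1 depleted at -3.14), and Gng12, a G protein subunit (4 of 12 at 2.26 to 2.87). Ap3d1, of the AP-3 adaptor, was of the short kind, with 4 of 11 at 2.27 to 3.41 within 1 kb. These 4 genes were chosen after their values were seen in the authors' deposited table.

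Position, length and peak number also varied with the calls. In 5 equal parts of the gene from start to end, 2.30%, 2.71%, 2.33%, 1.60% and 1.47% of the peaks were enriched and 8.47%, 5.65%, 6.57%, 5.87% and 7.23% depleted. Without the 3 leading genes the enriched shares were 1.67%, 2.23%, 1.31%, 1.44% and 1.40%, so that the middle part no longer stood above the last 2, and the depleted shares were 8.54%, 5.71%, 6.68%, 5.91% and 7.27%. Among the 255 intronic peaks over 75 nucleotides long 67 (26.3%) were enriched, against 1.24% to 2.97% in shorter classes. Without the 3 leading genes it was 33 of 214 (15.4%), and among exonic peaks of that length 81 of 921 (8.79%) were enriched. Genes with 1 intronic peak had 1.69% enriched and 8.24% depleted, and the 9 genes with 50 or more had 19% and 2.95%, the former being 3.64% without the 3 leading genes. The sources used here do not give how the ends of a peak were set.

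Another RefSeq gene overlapped 1166 of the intronic peaks (6.64%), of which 33 (2.83%) were enriched and 93 (7.98%) depleted, against 2.24% and 6.62% of peaks with no such gene. For overlap on the opposite strand, 23 of 746 (3.08%) were enriched and 75 (10.1%) depleted. The cases in Prkg1, Coro7, Gas6 and Elmsan1 given above are of this kind, and that in Lsamp lay on the same strand. In Mbnl2 all 5 enriched intronic peaks, at 2.84 to 3.57, overlapped Gm52122, a lncRNA gene on the opposite strand, and 3 of the 4 in Gng12 overlapped 4930597O21Rik.

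Of 20 genes on the list for steroid synthesis, 14 had a peak of any kind, and 5 of these had both intronic and exonic peaks. Among all 10818 gene names with a peak, 3881 had both. The 5 genes, Inhba, Por, Prlr, Scp2 and Star, gave 33 intronic peaks with a median log2 fold change of 0.16. Prlr alone held 19 of the 33, with a median of 0.14, so the list's values mostly describe that receptor gene. Of the 33 peaks 0 were called in either direction, where 2.22% of all peaks were enriched and 5.44% depleted. With 33 peaks a count of 0 does not set the list apart from those shares. Star, which carries cholesterol into the mitochondrion, had 1 intronic peak at 0.50, and Prlr, the prolactin receptor, had 19 from -2.33 to 2.52 beside an enriched 5′ UTR peak at 2.53 in the authors' deposited table. Cyp11a1, Lhcgr and Nr5a1 had no exonic peak or no intronic one and so are not in the set. Of 12 Leydig markers 7 had a peak of any kind, and Cyp17a1, Hsd17b3, Hsd3b1, Hsd3b6 and Insl3 had none among those analysed here. A peak of any kind was also found for 8 of 8 cardiac muscle markers, 6 of 6 macrophage markers, 4 of 5 peritubular and smooth muscle markers, 2 of 8 Sertoli markers and 1 of 7 germ cell markers, so having a peak did not separate Leydig markers from those of other cells. In the set itself, markers of germ cells, macrophages and peritubular cells gave 0 genes, Sertoli markers 1 gene with 2 intronic peaks and cardiac markers 1 gene with 15, and 0 of these were called.

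Genes of cholesterol supply gave 98 intronic peaks in 20 genes, with a median of -0.07, against -1.06 for all peaks and -1.20 for the whole set. Abca1 held 21 of the 98 peaks, with a median of 1.27, and Lrp1 held 12, with a median of 0.42. The list's median therefore weighs these genes most. Medians of single genes ran from -3.74 in Insig1 to 1.38 in Lss. Of them 1 was enriched (1.02%, against 2.22% of all peaks) and 6 in 5 genes were depleted (6.12%, against 5.44%), so the depleted share was near that of all peaks. Insig1, which holds the SREBP activator in the endoplasmic reticulum, had both intronic peaks depleted, at -3.36 and -4.12, and all 4 coding peaks depleted, at -5.35 to -3.23. Srebf2, a transcriptional activator of sterol synthesis genes, had 1 of 7 depleted at -3.31, and Mvd 1 of 5 at -3.70 in the authors' deposited table. The enriched peak was in Abca1, the cholesterol exporter.

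In the cyclic AMP and protein kinase A list, 21 genes gave 116 intronic peaks with a median of -1.14, 1 enriched (0.862%, against 2.22% of all peaks) and 5 depleted (4.31%, against 5.44%). The enriched one was in Akap9, an anchoring protein at the centrosome and Golgi, at 3.45, where 4 of 10 coding peaks were enriched too. Creb1, the cyclic AMP response factor, had a depleted peak at -3.75, Sik3, a kinase of the CREB coactivators, at -3.22, and Pde4d, a cyclic AMP phosphodiesterase, a touching pair at -3.70 and -3.60 more than 1 Mb from its exonic peak. No theme is drawn from 6 called peaks in 5 genes.

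Among mRNA decay factors, 24 genes had 98 intronic peaks, 5 enriched (5.1%, against 2.22% of all peaks) in 2 genes and 4 depleted (4.08%, against 5.44%) in 3. Cnot1, the scaffold of the deadenylase complex that tristetraprolin proteins bind, held 4 of the 5, at 2.02, 2.17, 2.55 and 2.87, and also a depleted intronic peak at -3.42, with an enriched 5′ UTR peak at 2.02. Tnrc6b, a partner of Argonaute, had 1 at 1.82. Elavl1, the AU-rich element binding protein HuR, had a depleted pair at -2.97 and -2.92, and Smg1, the nonsense-mediated decay kinase, 1 at -3.09 in the authors' deposited table. Zfp36, Zfp36l1 and Zfp36l2 had no peak of any kind among those analysed here.

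Splicing and hnRNP genes gave 189 intronic peaks in 36 genes with a median of -0.41, 12 enriched (6.35%, against the 2.22% of all peaks) in 6 genes and 6 depleted (3.17%, against 5.44%) in 5. Mbnl2, a splicing regulator of muscle and brain, held 5 of the 12. Hnrnpl had 2 of 3 enriched at 1.97 and 3.41, Rbm39 1 at 2.36 and 1 depleted at -2.90, and Celf2 1 of 63 depleted at -2.53 in the authors' deposited table. Nuclear receptors and their coregulators gave 255 peaks in 21 genes, 16 enriched (6.27%, against 2.22% of all peaks) in 3 and 17 depleted (6.67%, against 5.44%) in 8. Ppara held 11 of the 16, while Esrra, an orphan receptor of energy metabolism, had a depleted peak at -3.96.

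Chromatin modifiers gave 548 intronic peaks in 58 genes, 85 enriched (15.5%, against 2.22% of all peaks) in 5 genes and 20 depleted (3.65%, against 5.44%) in 15. Gse1 held 69 of the 85 and Smarca2 11, so the list's count is that of these genes. Setd5, a SET domain protein, had 1 of 10 at 4.94 (adjusted p = 1.4e-12), and Arid1a, a SWI/SNF subunit, had 1 of 4 depleted at -4.64 while a coding peak was enriched at 3.18. Sarcomere and cardiac genes gave 74 peaks in 12 genes with a median of -1.76, 0 enriched (against 2.22% of all peaks) and 3 depleted (4.05%, against 5.44%). The 3 were in Cacna1c, a voltage-gated calcium channel, at -3.33 to -3.20 in the authors' deposited table.

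Of 50 mRNAs known for AU-rich elements, 4 were in the set with 7 intronic peaks, of which 1 was enriched and 0 depleted, too few to set beside the shares of all peaks. It was in Egr1, an immediate early transcription factor, at 4.09 (adjusted p = 3.5e-12), 2100 nucleotides from its 3′ UTR peak, which was at 0.06 and not called in the authors' deposited table. The AU-rich elements of such mRNAs are known mostly from their 3′ UTRs, and 31 of the 50 had a peak of any kind.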

How the data were processed

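eCLIP libraries of MLTC-1 cells were made with a ZFP36L2 antibody (2 IP libraries) and rabbit IgG (1 IP library), each with its input. The submitters' processing notes name mm10, DESeq2 1.34.0, STAR 2.7.7a, cutadapt 3.2 and UMI-tools 1.1.1, with no role or order. How peaks were called, libraries pooled, inputs used and values normalized is not stated there. The authors deposited 1 table with a log2 fold change per peak, ZFP36L2 over IgG. They also deposited −log10 values of the p-value and of the adjusted p. The adjusted values differed by at most 0.0099 on that scale from a Benjamini-Hochberg adjustment over all peaks. The table has 0 columns of single libraries, so no test was refitted and depth limits on single peaks are unknown. The labels name no separate cultures, and any spread behind the p-values may be technical.

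All fold changes and adjusted p-values are the deposited ones. Members, called peaks, runs of touching peaks and distances were computed with Python 3.11.15, pandas 2.3.3 and numpy 2.4.6, and the scripts were tested on simulated data. A peak with several names counted for each. RefSeq (GRCm38.p6) gave gene spans for 3848 of 3881 genes (99.1%) and promoter windows for 3110. Exon positions were not used here. The members, gene lists and rules were chosen with earlier results of these data known, so no list is independent support. Named genes were those leading by log2 fold change, adjusted p, number of called or of all intronic peaks, distance to an exonic peak, or opposite calls, up to 4 called genes of each list, and fixed Leydig and locus genes. A few genes are not reported here. Genes named outside this rule are marked as chosen after their values were seen, or are given with a count they belong to. Alternatives covered thresholds, centring, gene names, touching peaks, 1 peak per gene, large loci, the definition of exonic and the distance to exonic peaks.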

Additional observations from a re-analysis of the deposited data

How the results depend on the processing

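No paired analysis was possible because the table holds no values of single libraries, so leaving out a replicate was not run either, and the planned wider motif window was not run because no genome sequence was used here. With 1 intronic peak per gene, the enriched count was 134 and the depleted count 700, the median -1.96, the intron minus exon difference -0.90 and the called shares 3.47% and 18.1%, since that choice takes each gene's best-supported peak. At an adjusted p under 0.01 the depleted count was 737 and the shares 1.87% and 4.20%. Centring on the median of all peaks moved the median to -0.14. Counting touching peaks once gave a median of -1.23 and shares of 2.76% and 7.38%. The enriched share was 1.93% over peaks with 1 gene name and 1.63% without the 3 leading genes. Of the other values under the alternatives, 40 stayed within the limits set for them. A change of direction was possible only for the median and the intron minus exon difference, and 0 of these changed direction. Centring could not lower the enriched count of 400, because it raised every value and kept the deposited adjusted p. Ignoring the name Galnt2l was added after seeing the data and moved no value past those limits. For counts the limit was a fixed fold around the main value. For shares and medians it was an interval, such as 2.07% to 2.51% for the enriched share. These intervals take peaks or genes as independent, although peaks of 1 gene are not, and so they are too narrow to measure robustness. Calls rest on 1 IgG IP library, depth is unknown, and small changes were rarely called.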

Other observations

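Several transcriptional coregulators, chosen after their values were seen, had all or many of their called intronic peaks on the depleted side. Med1, the Mediator subunit that contacts nuclear receptors, had both of its intronic peaks depleted in the authors' deposited table, at -3.45 and -3.36, while 2 of its 3′ UTR peaks were enriched at 2.62 and 2.07. Ankrd11, a chromatin regulator, had 4 of 19 intronic peaks depleted, at -4.16, -3.56, -3.08 and -2.95, and coding peaks enriched at 3.64 and 4.22, the latter with an adjusted p of 4.4e-51. Ppargc1b, a coactivator of mitochondrial genes, had 3 of 6 depleted at -3.79 to -3.40. Kmt2c, a histone methyltransferase, differed in direction, with 3 of 8 intronic peaks enriched at 2.09 to 2.39. The difference between these genes was not tested.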
